A study of Comephorus dybowskii and Comephorus baikalensis and Batrachocottus nikolskii with 4 samples.

Results

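The thick filament set held 31 of the 792 identifiers in the normalized expression files of skeletal muscle from 4 Baikal sculpins. An identifier was taken where at least 1 of the titles given to its contigs in the study's annotation named a myosin, titin or myomesin, and 1 further identifier was left out because it also carried a parvalbumin title. By title the set held 3 identifiers of myosin heavy chain, 4 of regulatory light chain, 10 of essential light chain, 4 of myosin binding protein, 7 of titin, 1 of myomesin and 2 of unconventional myosins.

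The study compared muscle of wild-caught fishes of a pelagic and a benthic genus. The pelagic genus *Comephorus* was represented by *C. dybowski* and *C. baicalensis*, and *Batrachocottus*, the benthic one, by *B. nikolskii* and *B. multiradiatus*. Each species had 1 library, made per the labels from the muscles of 15 individuals pooled (the study's methods give a larger number per species), so that the spread between individuals was not measured and the 2 species of a genus were its samples. Age, sex and the muscle sampled were not given in the labels, no treatment was named, and genus, habitat and ancestry cannot be told apart in this design. Where 4 values are given, *C. dybowski* comes before *C. baicalensis* and *B. nikolskii* before *B. multiradiatus*. The p-values measure no spread between individuals. They rest on the spread between the 2 pools of each genus, which limma and edgeR draw toward a spread estimated over all identifiers tested.

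The thick filament is the motor filament of the sarcomere. Each myosin molecule has a pair of heavy chains, whose heads bind actin and split ATP, and each head carries 1 essential and 1 regulatory light chain on its neck. Myosin binding proteins lie along the filament, titin runs from the Z-disc to the M-band as a molecular spring, and myomesin cross-links the filaments at the M-band. The axial muscle of bony fishes is mostly fast white muscle, and fishes express several genes for most of these proteins.

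Total counts over the listed identifiers were 54508410 to 59156409 per library. The counts were listed for 9787 identifiers in *Comephorus* and 10189 in *Batrachocottus*, with lowest counts of 57 to 61, so identifiers with no listed count are not in these totals. The normalized values were counts per 1000000 (CPM) of an adjusted library size, in which 1 CPM stood for 52.9 to 68.0 estimated reads and 3 counts for 0.0441 to 0.0567 CPM. The normalized files held identifiers that the authors had selected as differing on these same libraries, so a difference at a member is not independent evidence. Transcripts had been assembled for each species separately and then merged, and a value belongs to an identifier, not to a protein: 22 of the 31 members also carried a title of another protein, and 18 held at least 1 titled contig with no thick filament title. The share of a level that came from the thick filament contig was not tested. Per the methods, contigs were assigned to identifiers by name after the assemblies of the species had been merged. Whether unlike contigs of different species came under 1 identifier through a shared name was not tested, and it would change what a difference between species at an identifier means. Among the other 626 titled identifiers, 314 carried titles of more than 1 protein. The identifiers had no lengths, so levels were not compared between identifiers as amounts of transcript. The 31 members together summed to 67451 and 102964 CPM in *Comephorus* and 39288 and 87104 in *Batrachocottus*. This was 6.75% and 10.3% of the adjusted library size in *Comephorus* and 3.93% and 8.71% of it in *Batrachocottus*. The adjusted size was not the total count, so these are not shares of all counts. Scaling by the plain total of the listed counts raised *B. nikolskii* by 0.32 on the log2 scale, so how low its percentage was depended in part on the scaling. Under that scaling it was still the lowest library in the regulatory and essential light chain sums (20235 and 24709 per 1000000). Which scaling is nearer the truth was not tested. In bulk muscle fewer cells of a type and less RNA per cell cannot be told apart.

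**Figure D1:**
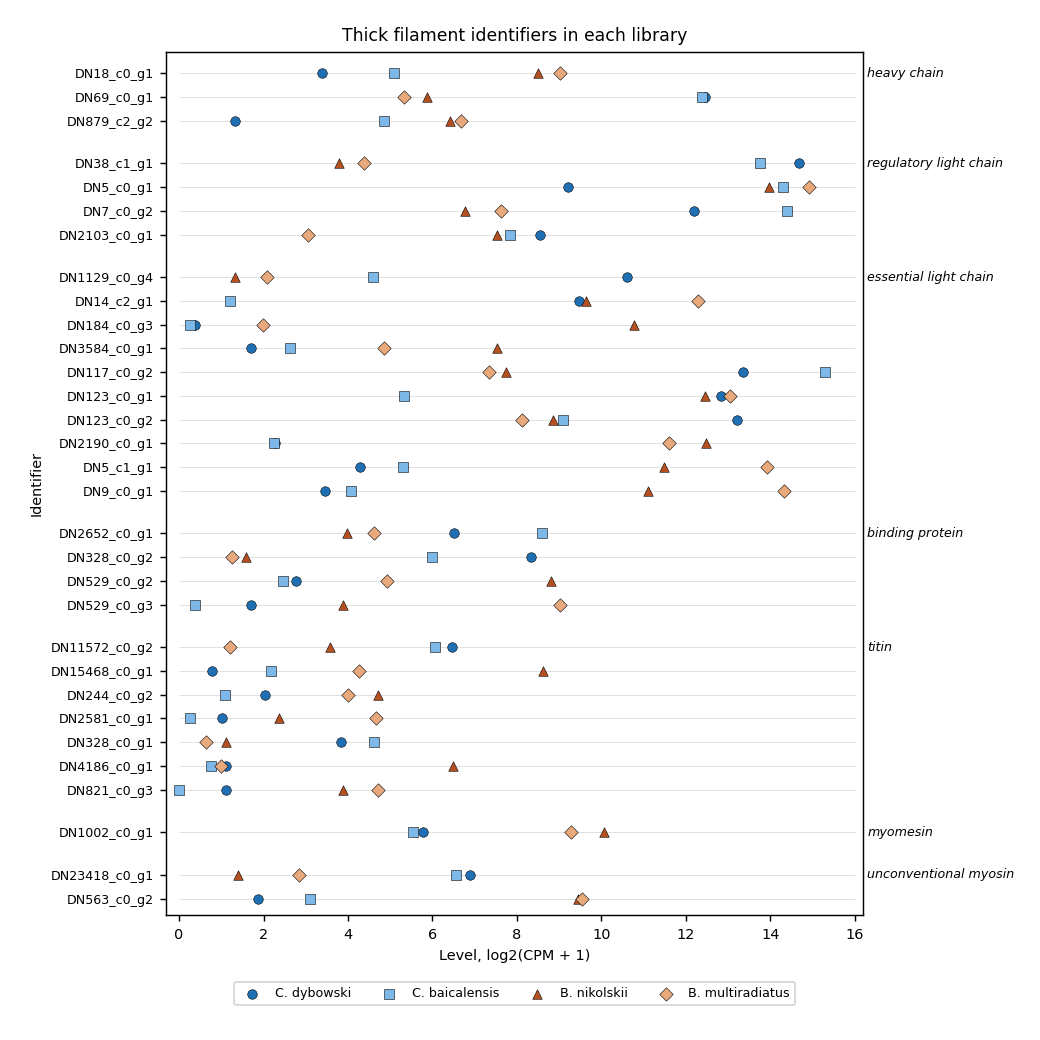
Level of each of the 31 identifiers, as log2(CPM + 1), in the 4 libraries, by protein class. Circles and squares are the *Comephorus* species and triangles and diamonds the *Batrachocottus* species. The genera's values lay apart at 28 identifiers and overlapped at 3.

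The genus contrast was first read across the whole set. On log2(CPM + 1), an adjusted limma p under 0.05 was reached by 13 members, 7 with *Comephorus* higher and 6 with *Batrachocottus* higher. This was 41.9% of 31, beside 53.3% of all 792 identifiers (29.3% toward *Comephorus* and 24.0% toward *Batrachocottus*). By limma the share of members called was not above that background. At an unadjusted limma p under 0.05 there were 20 of the 31 members, beside 482 of all 792 identifiers. The median difference, *Comephorus* minus *Batrachocottus*, was -2.86 over the members and 1.40 over all identifiers, and the median size of the difference was 4.51 and 4.07 on the log2 scale. Leaving out any 1 library puts 2 libraries against 1, and limma then called fewer of the 31. The share over all identifiers was not taken for those fits. All 13 called members had the values of the genera apart, so leaving out 1 library could not change their direction. Their differences were 3.63 to 10.57 in size without *B. nikolskii* and 2.68 to 10.42 without *B. multiradiatus*. They were 3.66 to 9.79 without *C. dybowski* and 3.89 to 10.58 without *C. baicalensis*.

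Of the 31 members, 24 were listed in the count tables of both genera. There edgeR's quasi-likelihood test called 12 of the 24, 6 in each direction, beside 9.21% of all 4755 identifiers tested (5.01% toward *Comephorus* and 4.21% toward *Batrachocottus*). Among the 537 identifiers that were also in the normalized files, the share was 46.4% (27.4% toward *Comephorus* and 19.0% toward *Batrachocottus*). All 12 were among the 13 that limma called, in the same direction, and the other 1 was a titin identifier. The edgeR calls also depended on which library was left out, and were lost without either *Batrachocottus* library. The share over all identifiers was not taken for those fits, which leave 1 library in a genus.

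**Figure D2:**
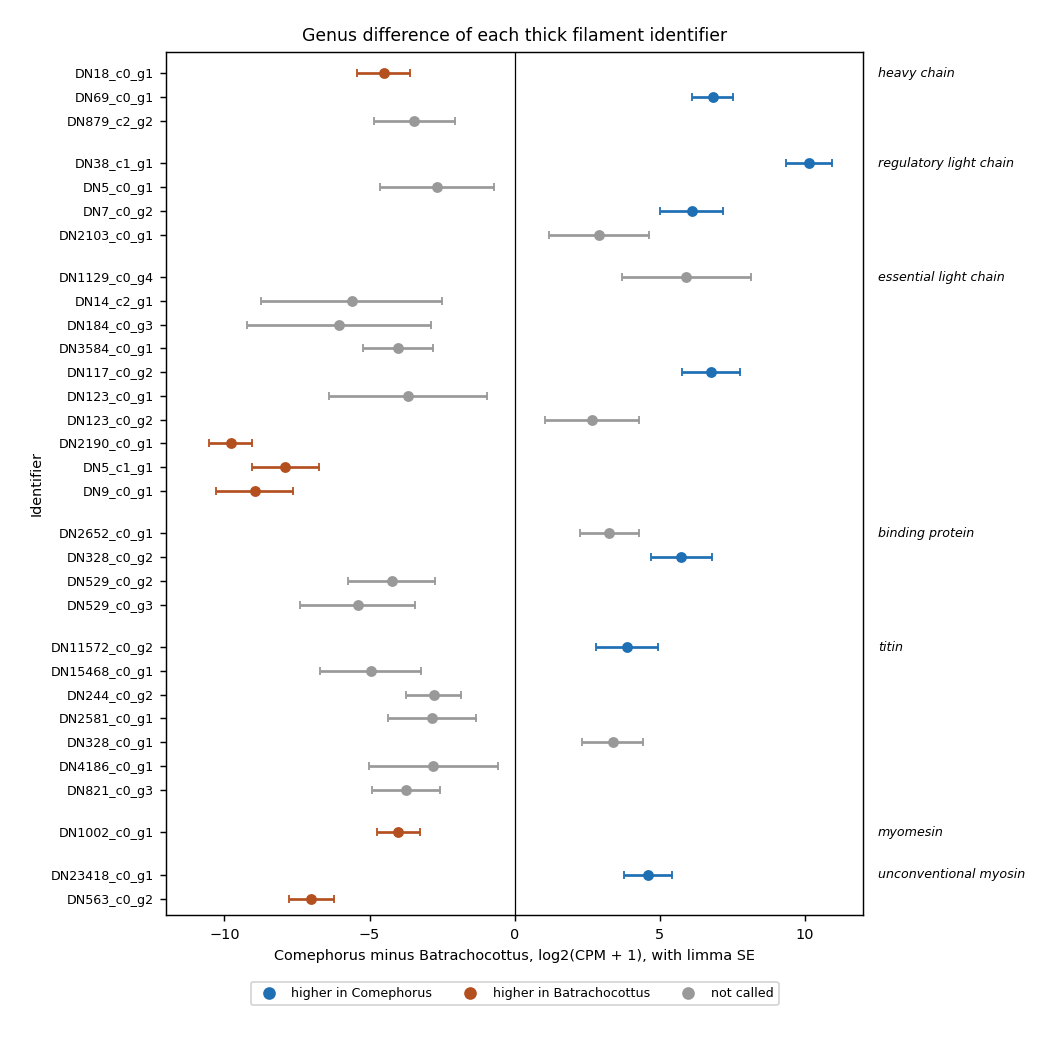
Genus difference of each identifier, *Comephorus* minus *Batrachocottus*, on log2(CPM + 1), with the limma standard error as bars. Blue points were called higher in *Comephorus* (7), brown points higher in *Batrachocottus* (6), and grey points were not called (18).

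The heavy chain, the motor itself, gave 1 identifier called in each direction. DN69_c0_g1, a fast skeletal muscle heavy chain that shares its identifier with the mitochondrial cristae protein CHCHD3a, stood at 5619 and 5331 CPM in *Comephorus* and 57.9 and 39.2 in *Batrachocottus*. Both *Comephorus* libraries were far above both *Batrachocottus* libraries, and the 2 species of each genus were close. The log2 difference was 6.81 (SE 0.71, n = 2 and 2, limma adjusted p = 0.00967, edgeR adjusted p = 0.0177).

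DN18_c0_g1 carried a fast skeletal muscle heavy chain title and a myosin-16 title, and also titles of replication factor C subunit 2, the chaperonin subunit TCP-1 alpha, a cytosolic acetyl-CoA acetyltransferase and an uncharacterized protein. It was at 9.52 and 33.2 CPM in *Comephorus* and 359 and 519 in *Batrachocottus*, with a log2 difference of -4.51 (SE 0.91, limma adjusted p = 0.0221, edgeR adjusted p = 0.0491). The genera lay apart in the opposite order to DN69_c0_g1. The heavy chain identifier with no other title, DN879_c2_g2, was at 1.501 and 27.8 CPM in *Comephorus* and 84.1 and 102 in *Batrachocottus*. *C. dybowski* was lowest and the *Batrachocottus* libraries were above both *Comephorus* libraries, but the difference of -3.46 (SE 1.40) was not called (limma adjusted p = 0.104).

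Summed over the 3 identifiers, the heavy chain level was 5630 and 5392 CPM in *Comephorus* and 501 and 660 in *Batrachocottus*, a ratio of genus means of 9.50. DN69_c0_g1 made up 99.8% and 98.9% of the *Comephorus* sums and 11.6% and 5.94% of the *Batrachocottus* sums, where DN18_c0_g1 made up 71.6% and 78.7%. The direction of the sum rested on DN69_c0_g1: the heavy chain identifier with no other title alone gave a log2 ratio of -2.66 in place of 3.25. Other identifiers of the count tables had no title to be read here and may include heavy chains, so these sums cannot be taken as total myosin.

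The skeletal muscle regulatory light chain 2, which binds the neck of the heavy chain next to the rod and is phosphorylated by myosin light chain kinase, was spread over 3 identifiers. DN38_c1_g1, whose single titled contig also carried a title of the protease calpain-7, was at 26108 and 13899 CPM in *Comephorus* and 12.9 and 19.8 in *Batrachocottus*. This was the highest positive difference in the set, 10.13 (SE 0.79, limma adjusted p = 0.00815, edgeR adjusted p = 0.0177). The lower *Comephorus* library was still far above the higher *Batrachocottus* library.

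DN7_c0_g2, on which peripheral myelin protein 22b was also a title, stood at 4693 and 21637 CPM in *Comephorus* and 109 and 196 in *Batrachocottus*. Both *Comephorus* libraries were again above both *Batrachocottus* libraries, by 6.10 (SE 1.08, limma adjusted p = 0.0176, edgeR adjusted p = 0.0416). DN5_c0_g1, which also carried titles of the muscle creatine kinases a and b, was at 594 CPM in *C. dybowski* and at 20209, 15911 and 31040 in the other 3 libraries. Here *C. dybowski* alone was low, the genera overlapped, and the difference of -2.68 (SE 1.96) was not called (limma adjusted p = 0.278).

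The 3 identifiers together gave 31395 and 55746 CPM in *Comephorus* and 16033 and 31256 in *Batrachocottus*. The highest sum was 3.48 times the lowest, whereas single identifiers differed between their highest and lowest libraries by 52.3 to 2029 times. In *B. nikolskii* and *B. multiradiatus* DN5_c0_g1 made up 99.2% and 99.3% of the sum, in *C. dybowski* DN38_c1_g1 made up 83.2%, and in *C. baicalensis* the sum was divided among DN7_c0_g2 (38.8%), DN5_c0_g1 (36.3%) and DN38_c1_g1 (24.9%). The genera's sums did not overlap, though *C. dybowski* and *B. multiradiatus* were nearly level. With 2 libraries against 2, an exact permutation test of a sum cannot give a p below 0.33, so no sum was tested.

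The regulatory light chain of the smooth muscle minor isoform, a form also found in non-muscle cells, had 1 identifier, DN2103_c0_g1, which also carried a title of the vesicle transport protein USE1. It was at 373 and 227 CPM in *Comephorus* and 182 and 7.33 in *Batrachocottus*. *B. multiradiatus* alone was low, and the genus difference of 2.90 (SE 1.72) was not called (limma adjusted p = 0.204). Among the marker lists, no identifier carried a title of the smooth muscle markers transgelin or calponin.

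Essential light chains sit nearer the motor domain. Of their 10 identifiers, limma called 1 with *Comephorus* higher and 3 with *Batrachocottus* higher, and 6 were not called. Over the 14 light chain identifiers of both kinds, 3 were called in each direction and 8 were not called. The share called was 42.9% of these 14, beside 53.3% of all 792 identifiers (29.3% toward *Comephorus* and 24.0% toward *Batrachocottus*).

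The skeletal muscle light chain 1, the long alkali light chain of fast muscle, had 3 identifiers, and none was called. DN1129_c0_g4, with no other title, was at 1567 and 23.3 CPM in *Comephorus* and 1.51 and 3.22 in *Batrachocottus* (difference 5.90, SE 2.22, limma adjusted p = 0.0888). DN184_c0_g3, also with no other title, was at 0.306 and 0.197 CPM in *Comephorus* and 1762 and 2.98 in *Batrachocottus* (difference -6.07, SE 3.17, limma adjusted p = 0.168). Each of these was high in a single species, a different one in each case.

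DN14_c2_g1, which also carried a title of the transcription factor bHLHE40, was at 704 and 1.31 CPM in *Comephorus* and 793 and 4994 in *Batrachocottus*. It was low in *C. baicalensis* alone, and its difference of -5.62 (SE 3.12) was not called (limma adjusted p = 0.183). The sum of the 3 was 2272 and 24.8 CPM in *Comephorus* and 2557 and 5000 in *Batrachocottus*. *C. baicalensis* stood apart from the other 3 libraries, 91.7 times below its congener, so the log2 ratio of genus means of -1.72 ranged from -7.25 without *C. dybowski* to -0.73 without *C. baicalensis*.

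Skeletal muscle light polypeptide 3, the other alkali light chain of fast muscle, had 6 identifiers and held most of the light chain calls. DN117_c0_g2, shared with the transcription factor BTF3 homolog 4, stood at 10387 and 40235 CPM in *Comephorus* and 215 and 162 in *Batrachocottus*. It was called higher in *Comephorus*, by 6.77 (SE 0.99, limma adjusted p = 0.0143, edgeR adjusted p = 0.0310).

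The other 3 called identifiers of light polypeptide 3 went the opposite way. DN2190_c0_g1 was at 3.81 and 3.77 CPM in *Comephorus* and 5715 and 3125 in *Batrachocottus*, the most negative difference in the set at -9.78 (SE 0.73, limma adjusted p = 0.00815, edgeR adjusted p = 0.0173). Its other titles were of glucose-6-phosphate dehydrogenase, the deadenylase subunit PAN2, WIPF2b and a regulatory subunit of protein phosphatase 1. DN5_c1_g1, which also carried a title of the mRNA decay factor SMG9, was at 18.4 and 38.4 CPM in *Comephorus* and 2863 and 15427 in *Batrachocottus* (difference -7.91, SE 1.15, limma adjusted p = 0.0143). DN9_c0_g1, which also carried titles of the ADP/ATP translocase 1 and a glycosaminoglycan xylosylkinase, was at 9.94 and 15.8 CPM in *Comephorus* and 2216 and 20635 in *Batrachocottus* (difference -8.96, SE 1.34, limma adjusted p = 0.0146). In all 3 both *Comephorus* libraries were low, and in the last 2 *B. multiradiatus* was well above *B. nikolskii*.

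A pair of identifiers carried titles of both light polypeptide 3 and a thin filament protein, fast skeletal troponin T type 3a. DN123_c0_g1 was at 7237 and 38.9 CPM in *Comephorus* and 5588 and 8494 in *Batrachocottus*. *C. baicalensis* alone was low and the genera overlapped. The difference of -3.68 (SE 2.74, limma adjusted p = 0.284) became 0.071 when *C. baicalensis* was left out. DN123_c0_g2, which also carried titles of TMEM14C, ATF4b and a nucleoside diphosphate kinase, was at 9422 and 545 CPM in *Comephorus* and 465 and 278 in *Batrachocottus*, with *C. dybowski* alone high (difference 2.65, SE 1.62, limma adjusted p = 0.214).

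The sum of light polypeptide 3 was 27078 and 40877 CPM in *Comephorus* and 17060 and 48120 in *Batrachocottus*. The genera overlapped, the ratio of genus means was 1.04, and the highest sum was 2.82 times the lowest, while single identifiers differed by 34.0 to 2076 times. The identifiers behind the sums differed by species. DN117_c0_g2 made up 98.4% in *C. baicalensis* and 38.4% in *C. dybowski*, where DN123_c0_g2 and DN123_c0_g1 added 34.8% and 26.7%. In *B. nikolskii* DN2190_c0_g1 (33.5%) and DN123_c0_g1 (32.8%) led, and in *B. multiradiatus* DN9_c0_g1 (42.9%) and DN5_c1_g1 (32.1%). Between species of 1 genus the sum differed by 2.82 times in *Batrachocottus* and 1.51 times in *Comephorus*, more than between the genus means.

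Myosin light chain 13 had 1 identifier, DN3584_c0_g1, which also carried a title of surfeit locus protein 1. It was at 2.27 and 5.15 CPM in *Comephorus* and 183 and 27.8 in *Batrachocottus*. The *Batrachocottus* libraries were above both *Comephorus* libraries, but the difference of -4.02 (SE 1.19) fell just short of a call (limma adjusted p = 0.0507).

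Heavy and light chains were set side by side across the 4 species. In *Comephorus* the heavy chain sum was 5630 and 5392 CPM, while the regulatory light chain sum of all 4 identifiers was 31768 in *C. dybowski* and 55973 in *C. baicalensis*. In *Batrachocottus* the heavy chain sums were 501 and 660 CPM and the regulatory light chain sums 16215 in *B. nikolskii* and 31263 in *B. multiradiatus*. The ratio of genus means was 9.50 for the heavy chains, 1.85 for the regulatory light chains and 0.963 for the essential light chains, whose sums were 29352 and 40907 CPM in *Comephorus* and 19800 and 53148 in *Batrachocottus*. As sums over all identifiers, the heavy chains and the regulatory light chains had both *Comephorus* libraries above, the essential light chains overlapped, and *B. nikolskii* was lowest in all 3. These ratios and their order depended on which identifiers were summed. Over identifiers in which every titled contig had a thick filament title, the ratio was 0.158 for the heavy chains (1 identifier, *Batrachocottus* above), 1223 for the regulatory light chains (1 identifier) and 0.0821 for the essential light chains (3 identifiers).

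**Figure D3:**
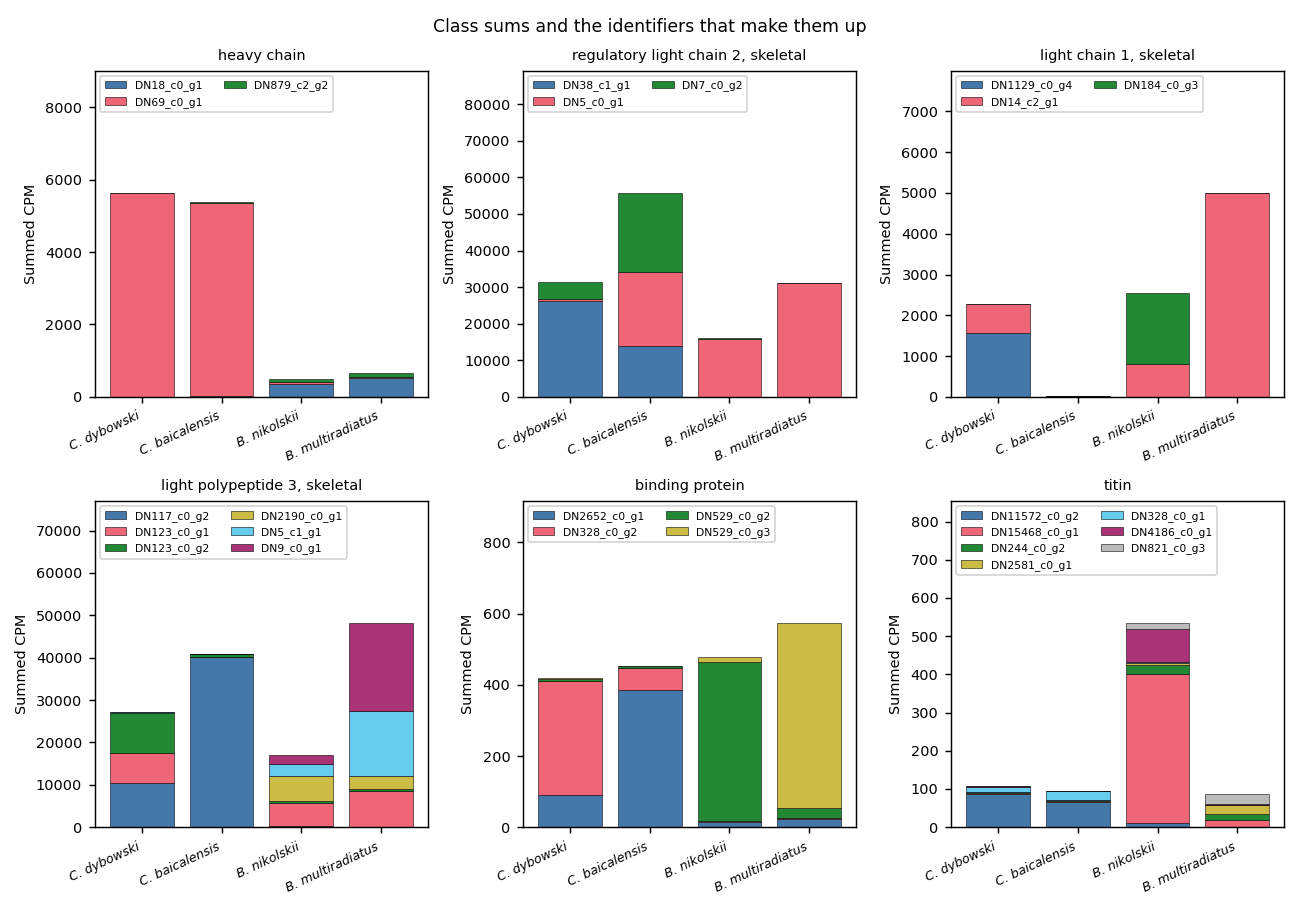
Summed CPM of 6 protein classes in each library, with each identifier as a coloured segment and each panel on its own linear axis from 0. The heavy chain bars are high in both *Comephorus* species. The binding protein bars lie between 418 and 573 CPM with a different colour leading in each species. The light chain 1 bar of *C. baicalensis* is low (24.8 CPM over the 3 identifiers of the set, which may not be all light chain 1).

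Myosin binding protein Hb, a homologue of the mammalian protein H that binds the thick filament, had a different leading identifier in each species. DN328_c0_g2, which also carried a FAM3C title, was at 320 and 62.7 CPM in *Comephorus* and 2.01 and 1.38 in *Batrachocottus*, and was called higher in *Comephorus* by 5.74 (SE 1.05, limma adjusted p = 0.0182, edgeR adjusted p = 0.0297). DN2652_c0_g1, which also carried a title of microfibrillar-associated protein 1, was at 89.9 and 385 CPM in *Comephorus* and 14.6 and 23.4 in *Batrachocottus* (difference 3.26, SE 1.01, limma adjusted p = 0.0562). Both were higher in the *Comephorus* libraries, but with the 2 *Comephorus* species in opposite order.

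The other pair was higher in *Batrachocottus* libraries and was not called. DN529_c0_g2, which also carried a title of clusterin, was at 5.86 and 4.52 CPM in *Comephorus* and 447 and 29.3 in *Batrachocottus* (difference -4.24, SE 1.51, limma adjusted p = 0.0793). DN529_c0_g3, with no other title, was at 2.25 and 0.303 CPM in *Comephorus* and 13.8 and 519 in *Batrachocottus* (difference -5.41, SE 1.98, limma adjusted p = 0.0843). Again the 2 species of the genus were in opposite order.

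Each species thus had its own leading identifier of this protein: DN328_c0_g2 with 76.6% of the sum in *C. dybowski*, DN2652_c0_g1 with 85.1% in *C. baicalensis*, DN529_c0_g2 with 93.6% in *B. nikolskii* and DN529_c0_g3 with 90.6% in *B. multiradiatus*. The sums themselves were 418 and 452 CPM in *Comephorus* and 477 and 573 in *Batrachocottus*. The highest was 1.37 times the lowest, whereas single identifiers differed by 26.3 to 1712 times between libraries. Without the identifier that holds a clusterin contig, the sum in *B. nikolskii* was 30.4 CPM and the log2 ratio of genus means was 0.58 in place of -0.27, so the direction of this small difference rested on that identifier. Whether the 4 identifiers are 1 gene or several was not tested.

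Titin, the spring that spans from Z-disc to M-band, had 7 identifiers, of which limma called 1. DN11572_c0_g2, with titin titles only, was at 87.9 and 65.6 CPM in *Comephorus* and 11.0 and 1.32 in *Batrachocottus*. It was called higher in *Comephorus* on the normalized values, by 3.87 (SE 1.06, limma adjusted p = 0.0425), but not on the counts (edgeR adjusted p = 0.0901). DN328_c0_g1, which also carried titles of APOBEC-2b and the repair protein XRCC4, had the same order of genera at 13.4 and 23.7 CPM in *Comephorus* and 1.15 and 0.544 in *Batrachocottus* and was not called (limma adjusted p = 0.0562).

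The other 5 titin identifiers had their highest value in a *Batrachocottus* library. DN15468_c0_g1, which also carried a title of ribosomal protein S26, was at 0.714 and 3.55 CPM in *Comephorus* and 390 and 18.3 in *Batrachocottus* (limma adjusted p = 0.0760). DN4186_c0_g1, which also carried a title of the mitochondrial translocase subunit TIM14, was at 89.0 CPM in *B. nikolskii* and at 0.699 to 1.15 in the other 3 libraries, so that the genera overlapped (limma adjusted p = 0.310). Both were high mainly in *B. nikolskii*.

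The remaining 3 had only titin titles and were low throughout. DN244_c0_g2 was at 3.07 and 1.13 CPM in *Comephorus* and 25.1 and 15.1 in *Batrachocottus* (limma adjusted p = 0.0677). DN2581_c0_g1 was at 1.04 and 0.203 CPM in *Comephorus* and 4.12 and 24.1 in *Batrachocottus* (limma adjusted p = 0.170). DN821_c0_g3 was at 1.14 and 0 CPM in *Comephorus* and 13.7 and 25.3 in *Batrachocottus* (limma adjusted p = 0.0562). The 0 in *C. baicalensis* allows up to 0.0567 CPM, the value of 3 counts in that library.

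Summed titin was 108 and 94.8 CPM in *Comephorus* and 534 and 85.6 in *Batrachocottus*. *B. nikolskii* alone stood apart, and the genera overlapped. Over the 4 identifiers with titin titles only, the sums were 93.1 and 66.9 CPM in *Comephorus* and 53.9 and 65.8 in *Batrachocottus*, which removed the excess of *B. nikolskii* and turned the log2 ratio of genus means from -1.61 to 0.42. Leaving out *B. nikolskii* turned it to 0.25.

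Myomesin-2, an M-band protein that cross-links myosin filaments and binds titin, had 1 identifier, DN1002_c0_g1. It was at 54.3 and 45.6 CPM in *Comephorus* and 1066 and 626 in *Batrachocottus*. The genera were well apart, and it was called higher in *Batrachocottus* (difference -4.01, SE 0.73, limma adjusted p = 0.0182, edgeR adjusted p = 0.0290). Of its 4 titled contigs, 3 carried only titles of other proteins, among them the medium-chain acyl-CoA dehydrogenase, UBE2Kb and OTUD6B.

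The 2 unconventional myosins, which do not build thick filaments, matched the rule by name. Myosin VIa, a motor that walks toward the minus end of actin filaments, shared DN23418_c0_g1 with the proteasome maturation protein at 118 and 92.5 CPM in *Comephorus* and 1.64 and 6.14 in *Batrachocottus*, and was called higher in *Comephorus* (4.60, SE 0.83, limma adjusted p = 0.0181). Myosin-XV, known in mammals from the stereocilia of inner ear hair cells, was alone on DN563_c0_g2 at 2.64 and 7.64 CPM in *Comephorus* and 694 and 743 in *Batrachocottus* and was called higher in *Batrachocottus* (-7.00, SE 0.79, limma adjusted p = 0.0103). The genera lay apart in both.

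Across the set, the values of the 2 genera did not overlap at 28 members, or 90.3%, beside 84.5% of all 792 identifiers: 12 had both *Comephorus* libraries above and 16 had both *Batrachocottus* libraries above. That is 38.7% and 51.6% of the 31, beside 44.6% and 39.9% of all. At 18 members (58.1%) the highest library was at least 100 times the lowest, beside 46.8% of all identifiers. *B. multiradiatus* held the highest value at 11 members, *C. dybowski* and *B. nikolskii* at 8 each and *C. baicalensis* at 4.

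Within each genus the 2 species were compared without a test, since each had 1 library. *C. dybowski* was at least 4-fold above *C. baicalensis* at 5 members and at least 4-fold below at 4, together 29.0% of the 31 beside 26.5% of all identifiers (12.4% above and 14.1% below). The 4 widest of the 5 were essential light chains: DN14_c2_g1 (8.25 on the log2 scale), DN123_c0_g1 (7.50), DN1129_c0_g4 (6.01) and DN123_c0_g2 (4.11). The 4 higher in *C. baicalensis* were the regulatory light chains DN5_c0_g1 (-5.09) and DN7_c0_g2 (-2.20), the heavy chain DN879_c2_g2 (-3.52) and the binding protein DN2652_c0_g1 (-2.09). No titin identifier passed 4-fold on log2(CPM + 1) between the *Comephorus* species, but at low levels the added 1 CPM hides larger ratios: DN15468_c0_g1 was 4.97 times higher in *C. baicalensis* and DN2581_c0_g1 5.11 times higher in *C. dybowski*. With a pseudocount of 0.1, 12 members passed 4-fold in place of 9.

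*B. nikolskii* was at least 4-fold above *B. multiradiatus* at 7 members and at least 4-fold below at 5, together 38.7% of the 31 beside 30.2% of all identifiers (17.0% above and 13.1% below). The 7 were the essential light chains DN184_c0_g3 (8.79) and DN3584_c0_g1 (2.68), the regulatory light chain DN2103_c0_g1 (4.46), the binding protein DN529_c0_g2 (3.88) and the titins DN4186_c0_g1 (5.50), DN15468_c0_g1 (4.34) and DN11572_c0_g2 (2.37). The 5 were the binding protein DN529_c0_g3 (-5.13), the essential light chains DN9_c0_g1 (-3.22), DN14_c2_g1 (-2.65) and DN5_c1_g1 (-2.43), and the titin DN2581_c0_g1 (-2.30). No heavy chain passed 4-fold between the *Batrachocottus* species.

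**Figure D4:**
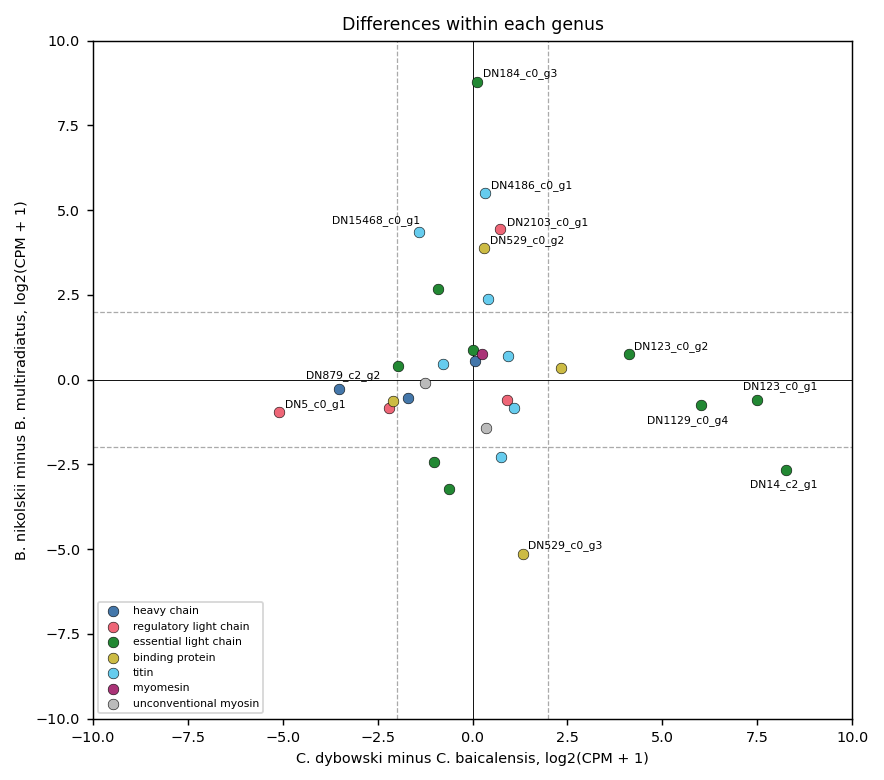
Difference of *C. dybowski* from *C. baicalensis* (horizontal) and of *B. nikolskii* from *B. multiradiatus* (vertical) for the 31 identifiers, on log2(CPM + 1), coloured by class, with dashed lines at 4-fold. Of the points past 4-fold, DN14_c2_g1 (8.25 and -2.65) is the 1 that is past it on both axes.

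Other sarcomere lists, read from the same titles, were set beside the thick filament. Over all 792 identifiers 53.3% were called, 29.3% toward *Comephorus*, with a median difference of 1.40. Of 31 thin filament identifiers, limma called 9 with *Comephorus* higher and 8 with *Batrachocottus* higher, together 54.8%, with a median difference of 2.24. The extremes were DN537_c0_g4, skeletal troponin C, the calcium sensor of the thin filament, at 7274 and 9738 CPM in *Comephorus* and 0 and 28.3 in *Batrachocottus*, and DN15_c0_g1, skeletal actin alpha 1 with 3 other proteins, at 17.4 and 38.8 CPM in *Comephorus* and 11849 and 31063 in *Batrachocottus*. Of 9 Z-disc, M-band and intermediate filament identifiers, 3 were called (33.3%), all with *Comephorus* higher, with a median of 3.53. Both shares called were near or below those over all identifiers. The extremes of this list were DN6966_c0_g1, alpha-actinin-3b, which anchors actin at the Z-disc, at 133 and 185 CPM in *Comephorus* and 1.22 and 6.31 in *Batrachocottus*, and DN17_c0_g4, myozenin-1a with a polyadenylate-binding protein title, at 13.4 and 6.87 CPM in *Comephorus* and 1.20 and 52.4 in *Batrachocottus*.

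Of 5 identifiers for folding and assembly of myosin, 2 were called with *Comephorus* higher and 1 with *Batrachocottus* higher, too few to set against the share over all identifiers. DN12857_c0_g1, SMYD1a with a carnitine acetyltransferase title, was at 197 and 187 CPM in *Comephorus* and 2.07 and 0.288 in *Batrachocottus* (6.60, limma adjusted p = 0.0103). SMYD1 is a methyltransferase needed for myofibril assembly in zebrafish. DN1477_c0_g2, the chaperone HSP90-beta with titles of PEA-15 and endothelin-converting enzyme 1, was at 1.16 and 10.3 CPM in *Comephorus* and 80.8 and 103 in *Batrachocottus* (-4.22, limma adjusted p = 0.0351). The 2 identifiers thus had the genera in opposite order.

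Markers of muscle and of other tissues were read in the same files. The list of fast skeletal muscle titles, without 2 slow troponin I identifiers that its wording also took (left out after the values were seen), held 26 identifiers that summed to 115689 and 83499 CPM in *Comephorus* and 84752 and 97531 in *Batrachocottus*. The 9 slow or cardiac muscle identifiers summed to 35737 and 56253 CPM in *Comephorus* and 11434 and 21081 in *Batrachocottus*. Most of these sums was cardiac actin on identifiers that also carried a skeletal actin title: DN60_c0_g2 with 32914 and 52062 CPM in *Comephorus* and DN224_c0_g1 with 10897 and 20789 CPM in *Batrachocottus*. Without the 4 actin identifiers the other 5 summed to 2366 and 2112 CPM in *Comephorus* and 488 and 194 in *Batrachocottus*. Of those 5, slow troponin C had both *Comephorus* libraries above, and 3 others, cardiac troponin T2d on DN1665_c0_g3 and both slow troponin I identifiers, had both *Batrachocottus* libraries above. The 9 haemoglobin identifiers summed to 3131 to 3382 CPM in *Comephorus* and 734 to 1096 CPM in *Batrachocottus*. Of the 9, 6 had both *Comephorus* libraries above and 2, among them the beta subunit on DN491_c0_g1, had both *Batrachocottus* libraries above. Over all 792 identifiers these shares were 44.6% and 39.9%. The 2 collagen identifiers summed to 14.1 to 138 CPM in *Comephorus* and 518 to 855 CPM in *Batrachocottus*. The 7 keratin identifiers ranged from 29.0 CPM in *B. nikolskii* to 894 in *B. multiradiatus*. The 3 identifiers with vitellogenin or zona pellucida titles summed to 1496 CPM in *B. nikolskii* and 2.73 to 9.32 in the other libraries. The 5 identifiers of the liver list, vitellogenin included, summed to 40.2 and 167 CPM in *Comephorus* and 1411 and 131 in *Batrachocottus*, and the perilipin-2 identifier of the adipocyte list was at 0.488 to 70.5 CPM. Of the 4 identifiers of the leukocyte list, 3 carried a title of IGFN1, a muscle protein, and the other, immunoglobulin mu, was at 105 CPM in *B. nikolskii* and 2.36 to 3.36 in the other libraries. These *B. nikolskii* values stood beside the members that were high in that library alone, DN184_c0_g3 and DN4186_c0_g1, and their part in those levels was not tested. Nor was the part of the haemoglobin and collagen differences in the genus contrast.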

How the data were processed

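Muscle RNA of 4 species was sequenced as 1 pooled library each. Per the study's methods, reads trimmed with Trimmomatic 0.36 (version per the labels) were assembled by species with Trinity, merged with CD-HIT at 95% identity and quantified per identifier. The authors deposited counts per identifier, listed per genus, and normalized values in CPM of a TMM-adjusted library size for 792 identifiers that edgeR 4.0.3 had selected with an assumed dispersion of 0.2. Titles came from the study's annotation, of which 1325 rows were read and 127 were not, so members may be missing. Members and lists were chosen with earlier results of these data known. All members were named, and of each companion list the member with the largest difference in each direction.

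The genus contrast used limma 3.58.1 (R 4.3.3, trend) on log2(CPM + 1), which understates the change of low identifiers, over all 792. The counts of 4755 identifiers listed for both genera were tested with edgeR 4.0.16 (quasi-likelihood, TMM), and with DESeq2 1.42.0 as an alternative. Tests were two-sided with Benjamini-Hochberg adjustment. In simulated counts of 4755 identifiers (not the 792 of the limma contrast) with 200 altered 4-fold, limma recovered 41.0% and called 11 unaltered ones, edgeR 38.0% and 8, and DESeq2 58.0% and 27. At 16-fold all 3 recovered 99.5%. The simulated counts had a dispersion of 0.2 and equal means within a genus. Recovery at the spread of these pools was not simulated, so the shares do not carry over to them. Some members that differed by more than 16-fold were not called, such as DN1129_c0_g4 (5.90, SE 2.22) and DN184_c0_g3 (-6.07, SE 3.17), while others were called. Floors cover counting error only. Pairs of species and class sums were not tested. Nothing that names a sequence was used, and reads per contig were not analysed here.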

Additional observations from a re-analysis of the deposited data

How the results depend on the processing

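Of 277 refits of single members, 233 kept direction and side of the threshold, 34 lost a call, 9 gained one and 1 reversed: DN123_c0_g1, at -3.68, ranged from -7.43 without *C. dybowski* to 0.071 without *C. baicalensis*. The 13 limma calls became 2 of 9 over members with titles of a single protein and 5 of 13 over members in which every titled contig had a thick filament title, since fewer members were counted, and 0 to 11 with 1 library left out. The shares of 2 of 9 and 5 of 13 were also below the 13 of 31 in the whole set. The 2 calls with titles of a single protein were titin on DN11572_c0_g2, which edgeR did not call, and myosin-XV on DN563_c0_g2. Every called identifier of heavy chain, light chain, binding protein or myomesin thus also carried a title of another protein. Pseudocounts of 0.1 and 10 and a filter at a mean CPM of 10 each gave 13. The 12 edgeR calls of 24 members became 20 of 24 with DESeq2's Wald test and 25 of 30 with no filter. The 30 took in 1 member listed in the counts of *Comephorus* only and 5 listed for *Batrachocottus* only. Those members had no listed counts in the other genus, and the fit set these to 0. Their CPM there was not always 0, as for DN15468_c0_g1 with 3.55 in *C. baicalensis*. A call there thus does not rest on counts in both genera. With 1 library left out the number of edgeR calls was 0 to 14. The share over all identifiers was not taken for these settings. The cause of these changes was not tested. Members past a fold went from 9 to 16 at 2-fold between the *Comephorus* species and from 12 to 7 at 8-fold between the *Batrachocottus* species.

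Log2 ratios of class sums, *Comephorus* over *Batrachocottus*, moved as follows. Over members with titles of a single protein, the binding protein went from -0.27 to -7.70, the heavy chain from 3.25 to -2.66 and titin from -1.61 to 0.42. Over members in which every titled contig had a thick filament title, the binding protein was 0.58, the heavy chain -2.66, light polypeptide 3 went from 0.06 to -8.33, the skeletal regulatory light chain from 0.88 to 10.26 and titin was 0.42. Counts over the plain total gave -0.44 for the binding protein. That scaling shifted the log2 difference of a single identifier by -0.17, before the pseudocount. It raised *B. nikolskii* by 0.32 and moved the other libraries by -0.06 to -0.01. The ratios of class sums whose members all had counts in at least 1 genus shifted by -0.34 to -0.09. A member without counts in a genus added nothing there. With 1 library left out, the heavy chain ranged from 3.06 to 3.46, light chain 1 from -7.25 to -0.73, light polypeptide 3 from -0.50 to 0.99, the skeletal regulatory light chain from 0.41 to 1.44, titin from -2.39 to 0.25 and the binding protein from -0.40 to -0.13.

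The alternative over contigs, limma without a trend (15 calls) and edgeR on rounded reads rebuilt from CPM (10 calls) were chosen after seeing the data. The planned edgeR fit on recovered whole reads was not run, because the rebuilt values were not whole. No paired analysis was possible because each species had 1 library and its number only names it. Values under 1 CPM rest on fewer than 68.0 estimated reads, and the spread was estimated from 2 pools per genus.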
